A study of Mus musculus with 15 samples.

Results

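The 9 genes described here encode guanylate-binding proteins (Gbp2, Gbp3, Gbp5, Gbp6, Gbp7 and Gbp9) and immunity-related GTPases (Irgm1, Igtp and Iigp1). They were chosen by symbol, as the listed members of these families that are present in a count table of 21013 gene symbols. All 9 passed the low-count filter, as did 16042 genes in all. RNA came from submandibular glands, a pair of major salivary glands, of wild-type male C57BL/6 mice aged 8 to 10 weeks. Nontreated glands form the group NT. The irradiated groups received 15 Gy at the gland region and were collected at day 4 (IR_4d) or day 30 (IR_30d). In IR_iEV_4d and IR_iEV_30d the same irradiation was followed, from day 1, by weekly injections of iEVs into the gland. The label iEV is not spelled out, and the series title speaks of extracellular vesicles of mesenchymal stem cells. Each of the 5 groups holds 3 libraries.

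The groups limit what can be compared. No group was injected with vehicle, and none received iEVs without irradiation, so a difference between IR_iEV and IR glands includes the injection. With weekly injections from day 1, IR_iEV_30d glands had time for more of them than IR_iEV_4d glands. The day and the number of injections thus cannot be told apart. The labels do not say when NT glands were collected, nor whether each library is its own mouse. A p-value here thus sets a difference against the variation among the 3 samples of each group, pooled over all groups in the fit. That variation may be technical in part. Total counts per library ran from 29082798 to 52201098, and raw counts of the 9 genes from 30 (Gbp5) to 1132 (Irgm1). CPM below are read counts per 1e+06, scaled to the effective library size. The libraries carried the defining transcripts of the labelled gland: submandibular acinar markers summed to 59270 to 91800 CPM in a library.

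Some libraries stood apart by markers of the neighbouring sublingual gland. Their mean was above 2 log2 CPM in NT replicate 1, IR_4d replicates 1 and 2, IR_iEV_4d replicates 2 and 3, and IR_iEV_30d replicate 2. The calls of the 9 genes are given with and without these 6 libraries where they change, and the counts of the other gene lists were not run without them. IR_iEV_4d replicate 2 also stood apart by markers of skeletal muscle, which summed to 114.8 CPM there and to at most 5.16 CPM in the other libraries. Its adipose markers summed to 662 CPM, against 141.6 to 165.4 CPM in NT. Those of IR_4d replicate 3 summed to 320 CPM and those of IR_iEV_4d replicate 1 to 294.4 CPM. The amylase gene Amy1, a parotid marker, was at 17.8 ± 3.36 CPM in NT, while IR_4d replicate 1 reached 1845 CPM and IR_iEV_4d replicate 3 reached 1897 CPM. Over 7 parotid markers the mean log2 CPM ran from 1.99 to 5.715 in the day 4 libraries, against 0.07424 to 1.184 in NT. Day 30 libraries ran from 0.9343 to 4.349. Of the 5 tested, none was called in IR_4d against NT by edgeR. At an unadjusted p under 0.05 there were 4, against 11.6% of all genes tested. The calls of the 9 genes in the comparisons of IR_iEV_4d with IR_4d and NT and in the difference between days were the same without IR_iEV_4d replicate 2. The part of muscle and parotid tissue in the other day 4 results was not tested.

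Guanylate-binding proteins and immunity-related GTPases are among the genes most strongly induced by interferon gamma, which acts through its receptor and the kinases JAK1 and JAK2. The GAS motif is the DNA element named for activation by interferon gamma. The ISRE motif is bound by IRF1 and other IRF proteins, and type I interferons act through it as well. The proteins hydrolyse GTP, assemble on vacuoles that hold bacteria or parasites, help to break them open, and expose bacterial products to inflammasomes. Gbp2 and Gbp5 carry a C-terminal signal for prenylation, a lipid anchor. Among the immunity-related GTPases, Iigp1 is an effector that loads onto vacuoles, while Irgm1 and Igtp (also called Irgm3) are regulators that keep effectors off the membranes of the cell itself. In tissues these genes are expressed in macrophages and, once interferon acts, in epithelium and endothelium.

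The promoters of 6 members are shown with their matches to interferon motifs. The choice of genes did not use the motifs, but it took families known to be induced by interferon gamma. The matches are thus not independent of that choice. RefSeq sequences of build GRCm38.p6, from 250 bases before to 50 after the annotated start of transcription, were searched on both strands for GAS, written TTCNNNGAA, and ISRE, written GAAANNGAAA. The GAS motif reads the same on both strands. The table held promoters of 6 members: Gbp2, Gbp3, Gbp5, Gbp7, Irgm1 and Igtp. No promoter is shown for Gbp6, Gbp9 and Iigp1. Each of the 6 genes had at least 1 ISRE match, and Gbp5, Gbp7 and Igtp had GAS matches as well. Of the 32851 promoters of this length in the table, 8.3% held a GAS match, 3.4% an ISRE match and 0.45% both. A match is a run of letters, not a measured binding site. The windows below end at the last base before the start. Those of Gbp2, Gbp3, Gbp7, Irgm1 and Igtp hold 110 bases and that of Gbp5 holds 250, and capitals mark the matches.
Gbp2 (chr3:142620553-142620662, plus strand): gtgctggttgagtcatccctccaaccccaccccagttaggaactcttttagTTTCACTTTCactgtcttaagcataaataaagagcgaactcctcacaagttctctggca
Gbp3 (chr3:142559934-142560043, plus strand): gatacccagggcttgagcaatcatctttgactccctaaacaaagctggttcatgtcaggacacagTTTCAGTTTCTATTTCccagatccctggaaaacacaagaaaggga
Gbp5 (chr3:142496684-142496933, plus strand): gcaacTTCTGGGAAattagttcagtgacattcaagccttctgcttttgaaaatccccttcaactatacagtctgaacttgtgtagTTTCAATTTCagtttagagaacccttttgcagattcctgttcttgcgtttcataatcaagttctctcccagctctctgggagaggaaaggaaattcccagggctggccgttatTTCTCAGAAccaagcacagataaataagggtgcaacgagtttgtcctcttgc
Gbp7 (chr3:142530226-142530335, plus strand): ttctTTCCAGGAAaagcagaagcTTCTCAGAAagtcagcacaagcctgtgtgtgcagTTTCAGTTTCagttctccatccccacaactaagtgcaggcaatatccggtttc
Irgm1 (chr11:48871421-48871530, minus strand): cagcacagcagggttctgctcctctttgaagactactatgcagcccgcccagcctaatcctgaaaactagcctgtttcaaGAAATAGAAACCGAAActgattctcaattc
Igtp (chr11:58199446-58199555, plus strand): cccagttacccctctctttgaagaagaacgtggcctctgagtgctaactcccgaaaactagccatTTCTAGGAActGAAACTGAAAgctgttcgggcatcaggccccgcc
On the printed strand of Gbp2, Gbp3, Gbp5 and Gbp7 the ISRE matches lie on the other strand, and in Irgm1 and Igtp they read as printed. In Gbp3 and Irgm1 a pair of ISRE matches overlaps, at 45 and 39 bases before the start of Gbp3 and at 30 and 24 bases before that of Irgm1. The other ISRE matches begin 59 bases before the start of Gbp2, 165 before Gbp5, 53 before Gbp7 and 34 before Igtp. GAS matches begin 245 and 52 bases before the start of Gbp5, 106 and 87 before Gbp7, and 45 before Igtp. A second promoter listed for Gbp3 held neither motif.

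**Figure D1:**
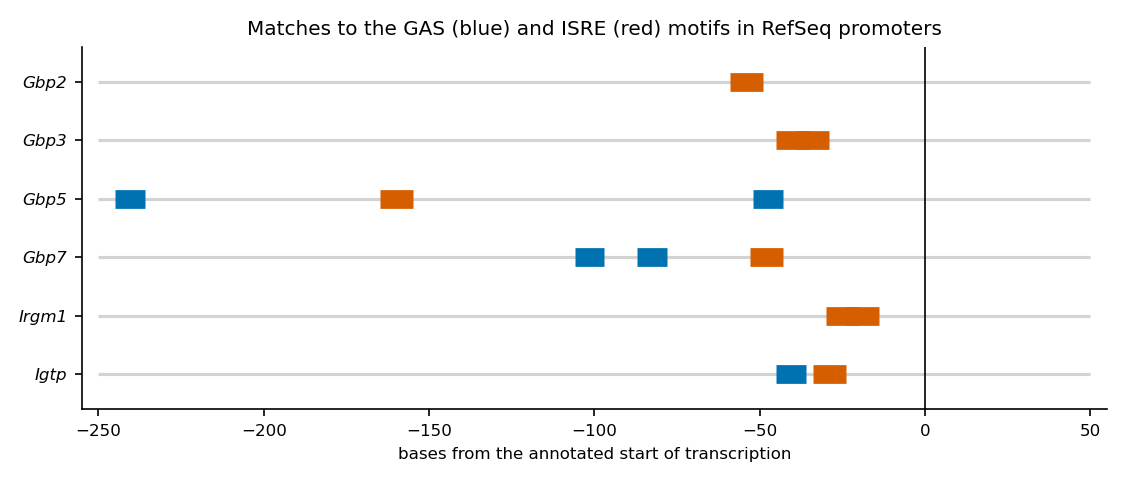
Positions of GAS (blue) and ISRE (red) matches in the promoters of 6 members, in bases from the annotated start of transcription (vertical line). All 6 hold an ISRE match within 165 bases before the start, and Gbp5, Gbp7 and Igtp also hold GAS matches.

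The members lie in clusters: Gbp2, Gbp3, Gbp5 and Gbp7 on chromosome 3, Gbp6 and Gbp9 on chromosome 5, Irgm1 and Igtp on chromosome 11, and Iigp1 on chromosome 18. Family members share sequence, so part of the reads cannot be assigned to 1 gene by sequence. In GRCm38 gene models, 70.7% of the 50-base windows of Gbp6 also occur in Gm43302, Gbp10 or Gbp4, and Gm43302 overlaps 29% of its exons. For Gbp7 the share was 12.7%, for Igtp 11.8% (mainly Irgm2) and for Gbp9 8%, and for the other 5 members it was at most 3.8%. How the authors' counting treated reads that map to several places is not given in the sources used here, so the level of Gbp6 in particular is uncertain as a level of this gene alone.

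Levels were compared between genes per kilobase of exonic sequence. In NT glands Irgm1 was the highest, at 2.88 ± 0.628 CPM per kilobase (mean ± SD, n = 3 here and below), followed by Igtp at 2.36 ± 0.614 and Gbp2 at 2.08 ± 0.303. Gbp5 was the lowest at 0.198 ± 0.0486 CPM per kilobase. In IR_30d glands Gbp2 led at 4.9 ± 1.48 CPM per kilobase, followed by Irgm1 at 4.5 ± 0.289 and Igtp at 4.26 ± 0.867, which lie within each other's spread. Gbp5 was again the lowest at 0.413 ± 0.0555 CPM per kilobase.

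Across the 5 groups the members followed 1 order at the top. The mean CPM of IR_30d was the highest for all 9 genes. The mean of IR_4d was the lowest for 8, and for Gbp7 that of IR_iEV_30d was the lowest. The libraries of IR_30d overlapped with those of the next group in the order for Gbp5, Gbp6 and Iigp1. Most other neighbours overlapped, so the middle of the order (NT, IR_iEV_4d and IR_iEV_30d) is not set. The highest group mean exceeded the lowest by 3.55-fold for Gbp6, 2.94-fold for Gbp3 and 2.74-fold for Gbp2, and by 1.58-fold for Irgm1, which varied the least.

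Of the prenylated pair, Gbp2 stood at 4.53, 5.16 and 6.05 CPM in NT replicates 1 to 3, at 4.7, 4.44 and 4.37 in IR_4d and at 4.81, 6.46 and 5.28 in IR_iEV_4d. In the day 30 groups it stood at 9.73, 16.6 and 10.7 CPM in IR_30d and at 6.93, 9.35 and 6.71 in IR_iEV_30d. The IR_30d libraries were the 3 highest of the 15, and IR_iEV_30d lay between them and all the others. Gbp5, which takes part in inflammasome responses, had 1.46, 0.943 and 1.54 CPM in NT, 1.09, 1.27 and 1.19 in IR_4d and 2, 1.36 and 2.09 in IR_iEV_4d. It reached 2.36, 2.78 and 3.09 CPM in IR_30d and 3.07, 1.92 and 1.64 in IR_iEV_30d. Here 1 IR_iEV_30d library reached the IR_30d range, and these 2 groups overlapped.

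Gbp3 had closely spaced replicates in most groups. It stood at 3.06, 3.02 and 3.31 CPM in NT, at 2.66, 2.9 and 2.59 in IR_4d and at 4.39, 5.2 and 5.11 in IR_iEV_4d. At day 30 it stood at 7.07, 8.89 and 8 CPM in IR_30d and at 5.03, 4.64 and 2.58 in IR_iEV_30d. All 3 IR_iEV_4d libraries lay above NT and IR_4d, and all 3 IR_iEV_30d libraries lay below IR_30d. Gbp6 had 6.9, 5.85 and 6.58 CPM in NT, 3.4, 3.29 and 3.43 in IR_4d and 6.48, 5.54 and 6.01 in IR_iEV_4d. At day 30 its values were 9.06, 15.4 and 11.4 CPM in IR_30d and 9.4, 7.46 and 4.06 in IR_iEV_30d. The 3 IR_4d libraries were the lowest of the 15 for Gbp6 and lay close together.

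Gbp7, which has been tied to autophagy in infected macrophages, lay at 4.97 to 8.39 CPM in NT glands, while IR_4d libraries held 5.66 to 6.39 CPM and IR_iEV_4d libraries 4.38 to 7.48 CPM. It had 10.7, 11.6 and 11.2 CPM in IR_30d and 7.02, 7.37 and 3.33 in IR_iEV_30d. Gbp9 ranged from 3.28 to 7.62 CPM in the 12 libraries outside IR_30d and had 8.22, 8.4 and 9.5 CPM in IR_30d. For both genes the 3 IR_30d libraries were the highest of all, while the other 4 groups overlapped.

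The regulator Irgm1 stood at 14.2, 15.2 and 20.9 CPM in NT, at 16.1, 18.2 and 15.4 in IR_4d and at 23.6, 18.1 and 23.6 in IR_iEV_4d. It had 24.2, 27 and 27.3 CPM in IR_30d and 24, 20.1 and 20.2 in IR_iEV_30d. The other regulator, Igtp, ranged from 3.8 to 6.17 CPM in NT, 2.62 to 5.1 in IR_4d, 4.88 to 6.88 in IR_iEV_4d, 7.13 to 10.6 in IR_30d and 4.54 to 6.57 in IR_iEV_30d. For both regulators IR_30d lay above all 12 other libraries. The effector Iigp1 had 4.61, 4.06 and 4.75 CPM in NT, 2.31, 3.26 and 3.11 in IR_4d and 4.29, 3.39 and 6.55 in IR_iEV_4d. At day 30 it had 6.28, 10.3 and 6.23 CPM in IR_30d and 4.63, 5.7 and 3.04 in IR_iEV_30d. The IR_4d and IR_30d libraries of Iigp1 did not overlap with NT, on the low and the high side, and IR_30d replicate 2 was the highest library.

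**Figure D2:**
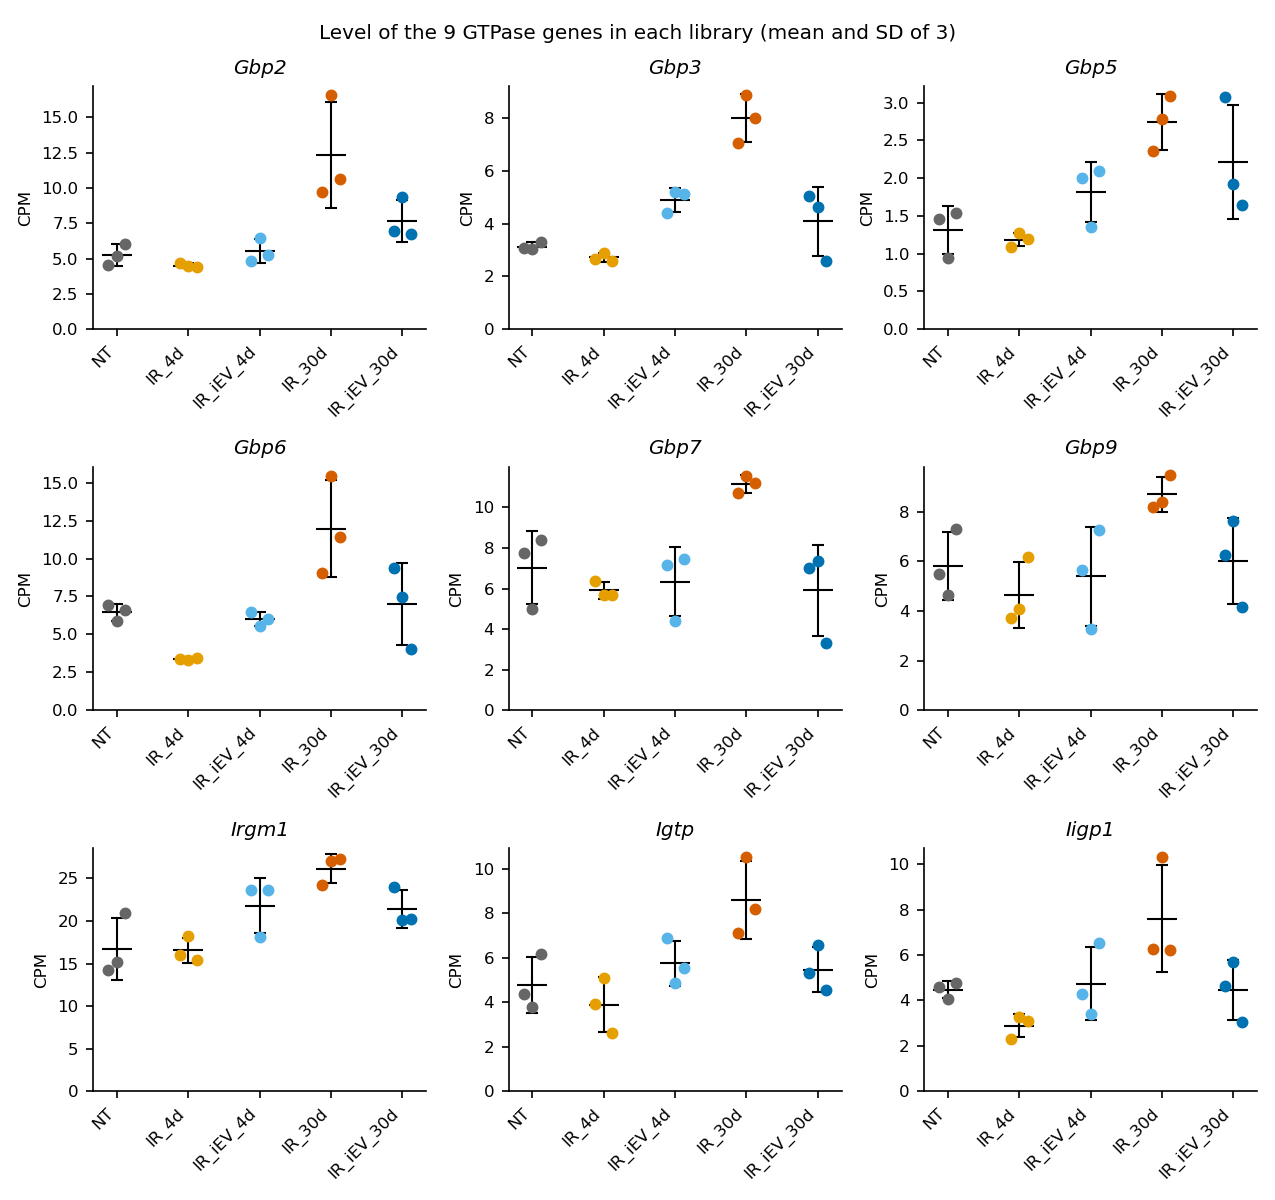
CPM of the 9 genes in every library (points), by group, with the mean and SD of 3 libraries (bars), each panel on its own linear axis from 0. IR_30d has the highest mean in all 9 panels, and its points do not overlap with those of NT in any of them.

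At day 30 after irradiation 5 of the 9 genes were higher than in NT glands: Gbp2, Gbp3, Gbp5, Gbp6 and Irgm1. The rises were 2.55-fold for Gbp3, 2.35-fold for Gbp2, 2.09-fold for Gbp5, 1.86-fold for Gbp6 and 1.56-fold for Irgm1, as ratios of mean CPM. All 9 log2 changes were positive, with a median of 0.84 against -0.0038 over all genes tested. Of all genes tested, 3.19% were called higher. In log2 units with SE, edgeR's quasi-likelihood test gave 1.35 ± 0.205 for Gbp3 (adjusted p = 0.000824) and 1.23 ± 0.199 for Gbp2 (adjusted p = 0.00132). The same test gave 0.64 ± 0.142 for Irgm1 (adjusted p = 0.0143), 0.89 ± 0.234 for Gbp6 (adjusted p = 0.0368) and 1.05 ± 0.283 for Gbp5 (adjusted p = 0.0412). The other 4 did not pass: 0.84 ± 0.239 for Igtp (adjusted p = 0.0547), 0.76 ± 0.267 for Iigp1 (0.13), 0.66 ± 0.262 for Gbp7 (0.208) and 0.57 ± 0.279 for Gbp9 (0.327). For all 9 genes the IR_30d libraries lay above the NT libraries, which was so for 12.6% of genes tested.

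How firm these calls are differed between members. Gbp2 and Gbp3 were called in each fit that left out 1 library. Without NT replicate 1, NT replicate 2, IR_30d replicate 2 or IR_30d replicate 3 the count fell from 5 to 2. Calls over all genes fell from 718 to 453, 528, 355 and 361 in these fits. Without the 6 libraries high in sublingual markers 2 members were called, Gbp2 at 1.11 (adjusted p = 0.0154, edgeR) and Gbp3 at 1.31 (adjusted p = 0.0141, edgeR). The log2 changes of the other 3 were then 1.1 for Gbp5 (adjusted p = 0.136), 0.92 for Gbp6 (0.305) and 0.51 for Irgm1 (0.0925).

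At day 4 after irradiation no member passed the test against NT in edgeR, with 2 of 9 at an unadjusted p under 0.05, against 11.6% of all genes tested. DESeq2 called 1, with 1.35% of all genes called lower by it, and limma-voom called 0. All 9 log2 changes were negative, with a median of -0.26, from -0.94 to -0.02, against a median of -0.0032 over all genes tested. Gbp6 had the largest, -0.94 ± 0.245 (adjusted p = 0.0778), which DESeq2 called (adjusted p = 0.0127), and Iigp1 followed at -0.63 ± 0.277 (adjusted p = 0.376). Of all genes tested, 0.561% were called lower. The libraries did not overlap for 3 members, Gbp3, Gbp6 and Iigp1, all on the low side, as for 9.31% of genes tested. Gbp6 was also called (adjusted p = 0.0158) where edgeR was fitted to the 6 libraries of these 2 groups alone.

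Between the irradiated groups without iEVs, 7 of the 9 genes were higher at day 30 than at day 4, against 4.81% of all genes tested. This comparison shares its IR_30d libraries with the comparison of IR_30d and NT above. The largest differences by edgeR were 1.83 ± 0.245 for Gbp6 (adjusted p = 0.0003), 1.55 ± 0.209 for Gbp3 (adjusted p = 0.000262) and 1.45 ± 0.202 for Gbp2 (adjusted p = 0.000346). Iigp1 (1.4 ± 0.276), Gbp5 (1.21 ± 0.288), Igtp (1.15 ± 0.244) and Irgm1 (0.66 ± 0.143) also rose. Gbp7 at 0.92 ± 0.267 (adjusted p = 0.0517) and Gbp9 at 0.91 ± 0.284 (adjusted p = 0.0724) did not pass in edgeR. DESeq2 called all 9, and it called 6.16% of all genes higher. Libraries of all 9 genes did not overlap, with day 30 above, as for 16.4% of genes tested. Without the 6 libraries high in sublingual markers, 3 were called, Gbp2, Gbp3 and Igtp, and IR_4d then holds a single library, assumed to vary like the other groups.

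At day 30 the iEV-treated glands had 1 member lower than the irradiated glands, Gbp3, with a mean of 4.08 ± 1.31 CPM against 7.98 ± 0.911. Its log2 change was -0.97 ± 0.203 (edgeR adjusted p = 0.0314), and 0.63% of all genes tested were called lower. All 9 log2 changes were negative, with a median of -0.69, from -0.97 to -0.29, against -0.0096 over all genes tested. Of the others, Gbp7 had -0.92 ± 0.266 (adjusted p = 0.143), Gbp6 -0.78 ± 0.233 (0.15), Iigp1 -0.78 ± 0.268 (0.222), Gbp2 -0.69 ± 0.196 (0.131), Igtp -0.66 ± 0.239 (0.248), Gbp9 -0.54 (0.446), Gbp5 -0.31 ± 0.276 (0.675) and Irgm1 -0.29 ± 0.142 (0.411). DESeq2 called 4, Gbp2, Gbp3, Gbp6 and Gbp7, and it called 1.65% of all genes lower. The libraries did not overlap for 7 members, all but Gbp5 and Gbp6, as for 11% of genes tested.

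The call of Gbp3 in this comparison rested on several libraries. It was lost without IR_30d replicate 1, 2 or 3 or without IR_iEV_30d replicate 3, with an edgeR adjusted p of up to 0.169. It was also lost with the replicate number as a block (edgeR adjusted p = 0.0506). Calls over all genes fell in the same fits, from 128 to 69, 12 and 9 without IR_30d replicates 1, 2 and 3. They fell to 26 without IR_iEV_30d replicate 3 and to 83 with the block, so in these fits the loss of a call was not particular to Gbp3. Without the 6 libraries high in sublingual markers its log2 change was -1.06 (edgeR adjusted p = 0.0547). Calls over all genes rose in that fit, so a general loss of calls does not describe it. IR_iEV_30d replicate 3 was the lowest of its group for Gbp2, Gbp3, Gbp5, Gbp6, Gbp7, Gbp9, Igtp and Iigp1. The mean over the 9 genes of log2 CPM centred on each gene's own mean was -0.41 in that library and 0.23 and 0.24 in replicates 1 and 2. In that library 2 of the 9 genes exceeded their own mean over all libraries, against 8 and 9 in the others of the group.

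At day 4 no member passed between iEV-treated and irradiated glands in edgeR, with 6 of 9 at an unadjusted p under 0.05, against 6.81% of all genes tested, and 0 called by DESeq2 or limma-voom. All 9 log2 changes were positive, with a median of 0.56, from 0.1 to 0.85, against -0.0037 over all genes tested. Gbp3 had 0.85 ± 0.209 (adjusted p = 0.361) and Gbp6 0.83 ± 0.245 (adjusted p = 0.498). Of all genes tested, 0.0312% were called higher. Libraries did not overlap for 5 members, Gbp2, Gbp3, Gbp5, Gbp6 and Iigp1, with IR_iEV_4d above, as for 7.31% of genes tested.

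The difference between the iEV changes of the 2 days, which also differ in the injections there was time for, was tested itself. It was below 0 for all 9 genes, with a median of -1.02 against -0.0084 over all genes tested, and passed for 1, Gbp3, at -1.82 ± 0.291 (edgeR adjusted p = 0.0113). Of all genes tested, 0.125% were called lower. Gbp6 had -1.62 ± 0.338 (adjusted p = 0.0976) and Iigp1 -1.49 ± 0.385 (adjusted p = 0.212), and DESeq2 called both (adjusted p = 0.00221 and 0.029), with 0.605% of all genes called lower by it. The call of Gbp3 was lost without IR_30d replicate 2 (edgeR adjusted p = 0.0573). It was also lost without the 6 libraries that carried sublingual markers, with a value of -1.8 (edgeR adjusted p = 0.487), where IR_4d and IR_iEV_4d each hold 1 library, so that the day 4 change then has no replicate of its own.

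Set against NT, no member passed in IR_iEV_4d, with 6 of 9 log2 changes positive and a median of 0.08 (edgeR, 2 of 9 at an unadjusted p under 0.05 against 16.6% of all genes, 0 by DESeq2 and limma-voom). Of all genes tested, 1.35% were called higher. The libraries did not overlap for Gbp3 alone among the members, with IR_iEV_4d above, as for 9.72% of genes tested. In IR_iEV_30d no member passed either, with 7 of 9 positive and a median of 0.18 (edgeR, 3 of 9 at an unadjusted p under 0.05 against 12.9% of all genes, 0 by DESeq2 and limma-voom), and 0.655% of all genes were called higher. Gbp2 and Gbp5 did not overlap, with IR_iEV_30d above NT, as for 8.61% of genes tested. A p that misses the threshold does not show that these groups are alike.

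**Figure D3:**
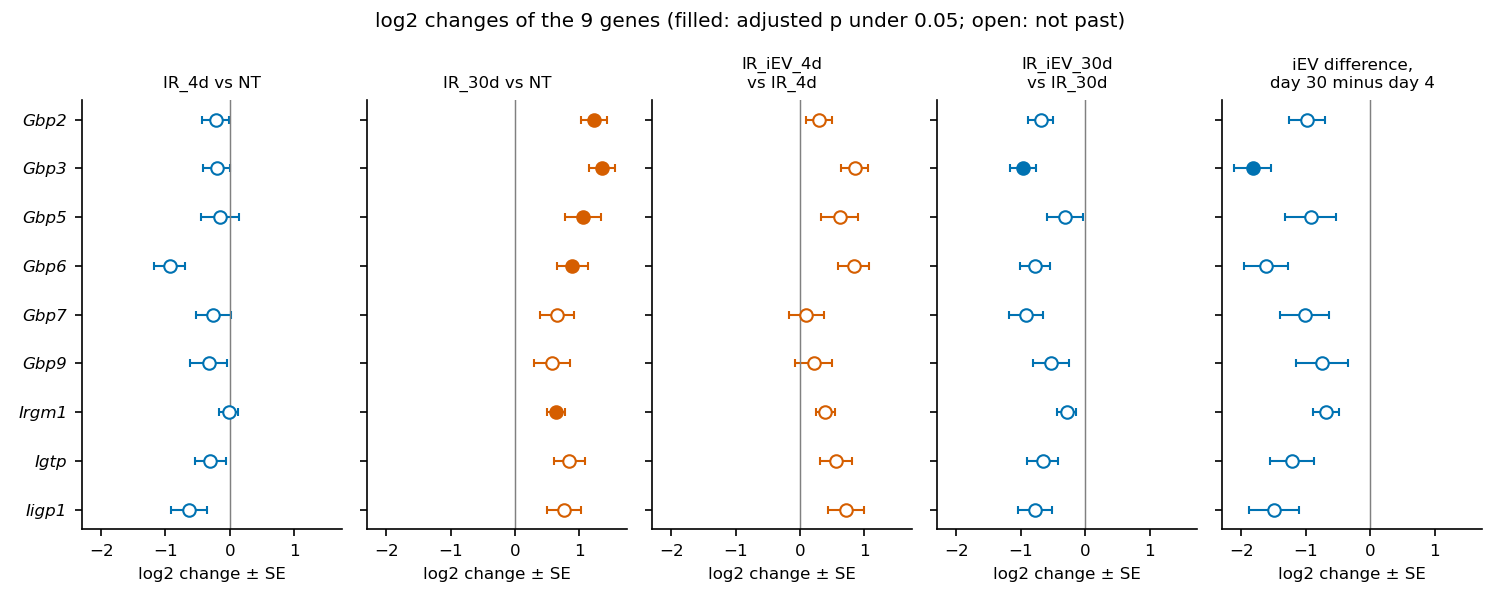
log2 changes ± SE of the 9 genes in 4 comparisons and in the difference of the iEV changes between days (colour gives the sign, filled points passed an adjusted p of 0.05 in edgeR). Filled points are Gbp2, Gbp3, Gbp5, Gbp6 and Irgm1 in IR_30d against NT, and Gbp3 in IR_iEV_30d against IR_30d and in the difference between days.

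Macrophage markers moved with the members. The summed level of 18 macrophage markers ran from 256 to 305 CPM in NT, 226 to 251 in IR_4d, 266 to 287 in IR_iEV_4d, 416 to 500.3 in IR_30d and 289 to 390 in IR_iEV_30d, and none of the 18 was at 0 in any library. Within IR_iEV_30d the lowest sum, 289 CPM, was in replicate 3, the library in which the members were low. In IR_30d against NT 12 of the 18 were called higher, with a median log2 change of 0.87. In IR_iEV_30d against IR_30d none was called by edgeR, and the median was -0.47. At an unadjusted p under 0.05 there were 11 of 18, against 2066 of the 16042 genes tested. With the macrophage level as a covariate 1 member was called in IR_iEV_4d against NT, Gbp3, and none in the other 7 comparisons. Calls over all genes in IR_30d against NT then fell from 718 to 29. Since 88.1% of the variance of the macrophage level lay between the groups, the group and the macrophage level cannot be told apart. In bulk tissue more cells of a type and more RNA per cell cannot be told apart either.

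Markers of T and NK cells, the main producers of interferon gamma, moved in the members' direction in some comparisons only. The summed level of 26 T and NK cell markers ran from 15.8 to 20 CPM in NT, 6.71 to 9.54 in IR_4d, 7.66 to 10.5 in IR_iEV_4d, 20.6 to 24.4 in IR_30d and 20.4 to 25.4 in IR_iEV_30d. The ranges of IR_iEV_4d and IR_4d overlapped, as did those of IR_iEV_30d and IR_30d. Of 19 tested, 2 were called lower in IR_4d against NT by edgeR, as were 0.561% of all genes. Between IR_30d and IR_4d 6 rose, against 4.81% of all genes. Median log2 changes were -1.21 in IR_4d and 0.38 in IR_30d against NT, and 1.435 between IR_30d and IR_4d. With iEVs they were 0.03 at day 4 and 0.04 at day 30. Up to 8 of the 26 markers were at 0 in a library. Of 8 neutrophil markers 3 were in the count table, and they summed to at most 3.01 CPM in a library. Their sums ran from 0.315 to 0.943 CPM in NT and from 1.48 to 3.01 in IR_30d. Only 1 was tested, and edgeR called it higher in IR_30d against NT (log2 change 1.87), as 3.19% of all genes tested. Endothelial markers ran from 92.1 to 147 CPM, and none of the 12 was called by edgeR in the 4 comparisons of IR with NT and of IR_iEV with IR, with at most 2 at an unadjusted p under 0.05. Among the gland's own cells, granular convoluted tubule markers, which include the glandular kallikreins, also peaked in IR_30d, at 179200 to 197000 CPM, against 66630 to 102000 in NT and 88090 to 127700 in IR_iEV_30d. The part of T, NK, neutrophil, endothelial and duct cells in the members' differences was not tested.

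**Figure D4:**
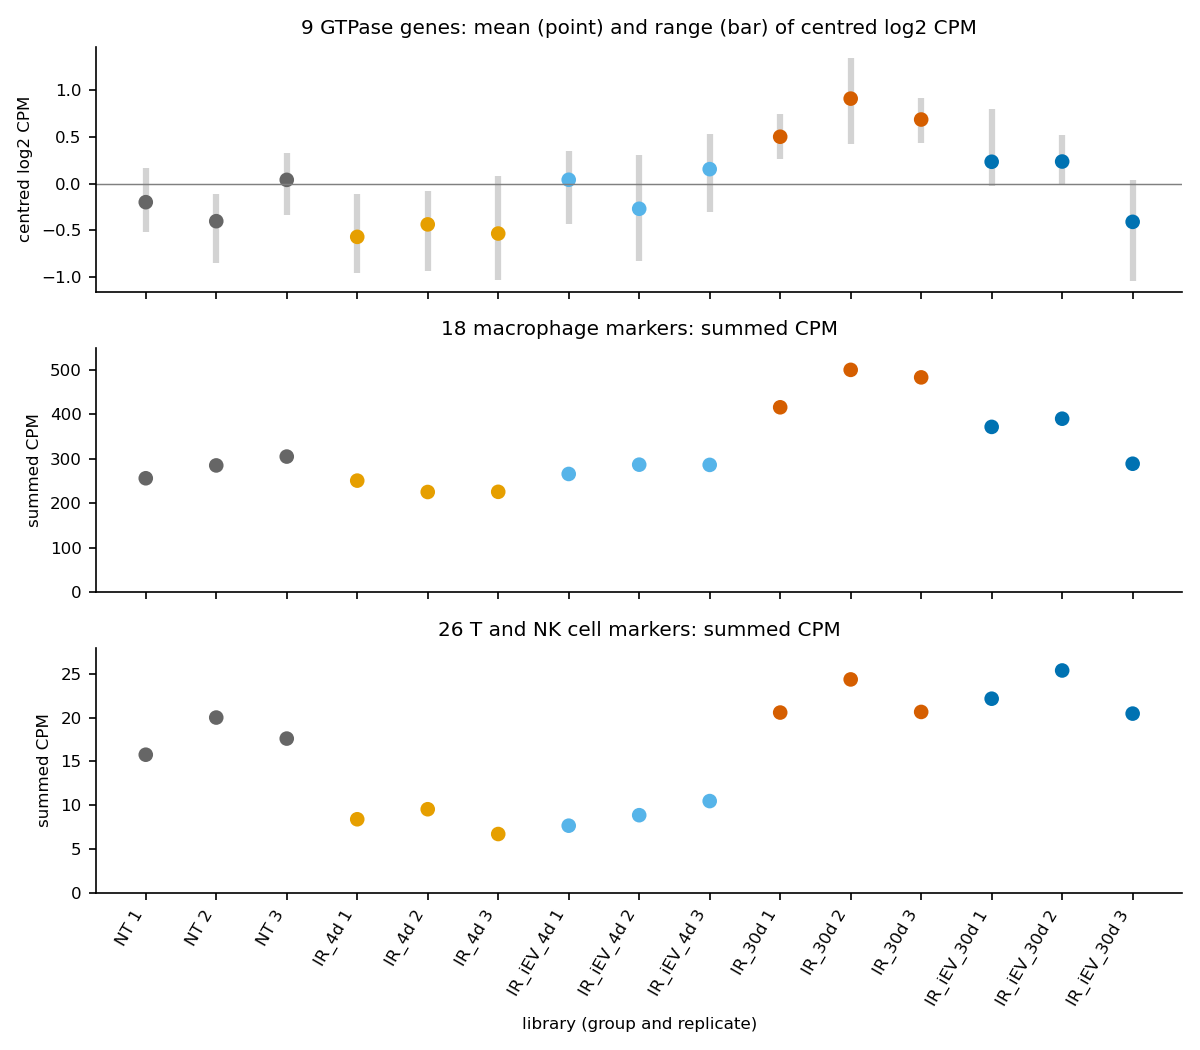
Upper panel: mean (points) and range (bars) of the centred log2 CPM of the 9 genes in each library. The lower panels show the summed CPM of 18 macrophage and of 26 T and NK cell markers, on linear axes from 0. IR_30d is highest for the members and for macrophage markers, IR_iEV_30d replicate 3 is low in both, and T and NK cell markers separate NT and day 30 from day 4.

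The genes with the profile most like that of the members were Parp14, Arhgap30, C1qc, C3ar1, C1qb, Fcrl2, Sdc3, Mndal, C1qa and C2, in this order. Likeness was the root mean square difference of centred log2 CPM over the 15 libraries, among 11778 non-member genes, and it ran from 0.168 for Parp14 to 0.221 for C2. The members themselves differed from the mean of the other 8 by 0.232 (Iigp1) to 0.311 (Gbp2). C1qa, C1qb and C1qc encode the chains of complement C1q, which macrophages make. C1qb had a log2 change of 0.97 in IR_30d against NT and -0.48 in IR_iEV_30d against IR_30d. Sdc3, a syndecan, had 0.87 and -0.6 in the same comparisons. These values describe genes chosen for their profile over the same libraries and are not tested.

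The other members of both families were counted as well. Of 24 listed, 15 are in the table and 12 passed the filter. None was called by edgeR in IR_30d against NT, where 11 of 12 changes were positive with a median of 0.53, nor in IR_iEV_30d against IR_30d, where 11 of 12 were negative with a median of -0.63. At an unadjusted p under 0.05 the counts were 4 and 1 of the 12, against 2618 and 2066 of the 16042 genes tested. The regulator Irgm2, a neighbour of Igtp, had 11.1 ± 2.86 CPM in NT, 7.33 ± 2.42 in IR_4d, 12.6 ± 0.399 in IR_iEV_4d, 16.7 ± 2.04 in IR_30d and 12.6 ± 1.36 in IR_iEV_30d. Its IR_30d libraries lay above NT, but its change of 0.58 ± 0.202 did not pass (adjusted p = 0.133). Between IR_30d and IR_4d 6 of the 12 rose: Irgm2 at 1.18 ± 0.207, Tgtp2, an effector, at 1.5 ± 0.355, Gbp4 at 1.04 ± 0.255, Gm12250, Gbp8 and Gm5431.

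Some relatives had other values. Irgq, a divergent member of the family, had 30.04 CPM in NT and 28.9 in IR_30d, with a log2 change of -0.06, and Gbp10 changed by 0.1 ± 1.06. Gbp2b, a close relative of Gbp2, had too few reads to be tested: 0, 0 and 3 in NT, 0, 1 and 0 in IR_4d, 1, 1 and 3 in IR_iEV_4d, 5, 8 and 12 in IR_30d and 11, 5 and 3 in IR_iEV_30d. Iigp1c, a paralog of Iigp1 singled out after its values were seen, had 0.819 ± 0.161 CPM in NT, 0.65 ± 0.178 in IR_4d, 1.76 ± 0.454 in IR_30d and 0.997 ± 0.693 in IR_iEV_30d. The 5 tested large GTPases outside both families, among them Mx1 and Mx2, were not called in any of these 4 comparisons by edgeR, with 1 or 2 at an unadjusted p under 0.05 in each. The median log2 changes of these 5 were 0.82 in IR_30d against NT and -0.67 in IR_iEV_30d against IR_30d. Between IR_30d and IR_4d 3 of the 5 rose, Mx1, Mx2 and Gvin3, with a median of 1.83.

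Transcripts of the upstream pathway were measured in the same libraries. Ifng, which encodes interferon gamma, had 0 to 3 reads in each library and did not pass the low-count filter, so no change of it could be read at this depth. Its receptor genes were expressed, Ifngr1 at 23.1 ± 2.16 CPM in NT and 24.7 ± 1.87 in IR_30d, and Ifngr2 at 19.5 ± 1.24 and 19.4 ± 0.464. Of 21 tested genes of receptor and signalling, 5 rose in IR_30d against NT, among them Cited2 (0.62 ± 0.131, edgeR adjusted p = 0.00989), Nmi (0.63 ± 0.153, adjusted p = 0.0242), Jak1 (0.32 ± 0.0763, adjusted p = 0.0209) and Ptpn6 (0.45 ± 0.113, adjusted p = 0.0302). The list median was 0.32, and none of the 21 was called by edgeR in the other 3 comparisons, with 7, 7 and 8 at an unadjusted p under 0.05. Between IR_30d and IR_4d 11 of the 21 rose, with a median of 0.51.

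The transcription factor Irf1, itself an early target of interferon gamma, differed from the members in IR_30d. It had 13.7 ± 1.42 CPM in NT and 12.2 ± 0.357 in IR_30d, with a log2 change of -0.17 ± 0.14 (edgeR adjusted p = 0.634). Of 12 tested genes that induce interferon gamma, Il18rap fell by 3.06 ± 0.634 in IR_4d and Il18r1 fell by 1.79 ± 0.477 in IR_30d, both receptor chains for interleukin 18. The chemokines Cxcl9 and Cxcl10, typical targets of interferon gamma, stood at 0.528 ± 0.136 and 1.09 ± 0.661 CPM in NT and 1.32 ± 0.675 and 1.67 ± 0.322 in IR_30d. Neither passed against NT (edgeR adjusted p = 0.237 and 0.528). Of 4 tested type I and III interferon genes, none was called by edgeR in these comparisons, with at most 1 at an unadjusted p under 0.05.

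Other interferon targets were set beside the members by their counts. Of 30 other targets of interferon gamma, 12 rose in IR_30d against NT, with H2-K1, Tap1, B2m and H2-D1 at the lowest p, and the median was 0.65. Tap1, a peptide transporter of MHC class I loading, stood at 17.6 ± 3.05 CPM in NT, 33.1 ± 1.1 in IR_30d and 29.5 ± 2.03 in IR_iEV_30d. None of the 30 was called in IR_iEV_30d against IR_30d by edgeR, with 2 at an unadjusted p under 0.05 and a median of -0.11, and 9 were called higher in IR_iEV_30d against NT. At day 4 the MHC class II genes H2-Eb1, H2-Aa, H2-Ab1 and Cd74, and their activator Ciita, fell against NT. The markers of dendritic cells, which carry MHC class II, were low there as well: 9 of them summed to 12.2 to 16.8 CPM in NT and to 6.7 to 8.69 CPM in IR_4d. Of the 8 tested 1 fell, Itgax, and all 8 log2 changes were negative, with a median of -1.91. B and plasma cell markers summed to 259.9 to 366.9 CPM in NT and 249.7 to 301.4 CPM in IR_4d. The 6 tested had a median of -1.64, with none called by edgeR. At an unadjusted p under 0.05 there were 2, against 11.6% of all genes tested. The part of both cell types in the fall of these genes was not tested. Ciita fell by 1.19 ± 0.241 (edgeR adjusted p = 0.0148), and in IR_30d it had 0.79 ± 0.224 (adjusted p = 0.0534).

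Of 33 genes induced mainly by type I interferon, 15 rose in IR_30d and 7 fell in IR_4d against NT, with medians of 1.02 and -0.52. With iEVs 4 rose at day 4 (Ifit3, Rtp4, Irf7 and Bst2) and 3 fell at day 30 (Ifit3, Siglec1 and Oas2). The medians of this list, 0.9 at day 4 and -0.7 at day 30, had the signs of those of the members, 0.56 and -0.69. For the 30 other interferon gamma targets the 2 medians had the same signs, 0.27 and -0.11. Of these 30, 27 had a positive change at day 4 and 26 a negative one at day 30. Between IR_30d and IR_4d 31 of the 33 and 19 of the 30 rose. Differences between lists were not tested.

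Genes with which these GTPases work were counted in the comparisons of IR with NT and of IR_iEV with IR. Of 15 inflammasome and pyroptosis genes 1 was called in these 4, Aim2, a DNA sensor, which fell by 1.6 ± 0.377 in IR_4d (edgeR adjusted p = 0.0398). Aim2 was also lower in IR_iEV_4d than in NT, by a log2 change of -1.48 ± 0.369, and Aim2 and Casp8 were higher in IR_30d than in IR_4d. Of 10 genes of the ubiquitin-like conjugation that loads these proteins onto vacuoles, Gabarapl1 fell by 0.66 ± 0.0904 in IR_4d and by 0.36 ± 0.09 in IR_30d against NT, and no other was called in these 4. Gabarapl1 was also lower in IR_iEV_4d than in NT, and Atg16l1 was lower in IR_30d than in IR_4d, by a log2 change of -0.4 ± 0.116. None of 6 prenylation enzymes was called by edgeR in the 4 comparisons, or had an unadjusted p under 0.05. Medians of the conjugation and prenylation lists stayed between -0.09 and 0.08 in the 4 comparisons.

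**Figure D5:**
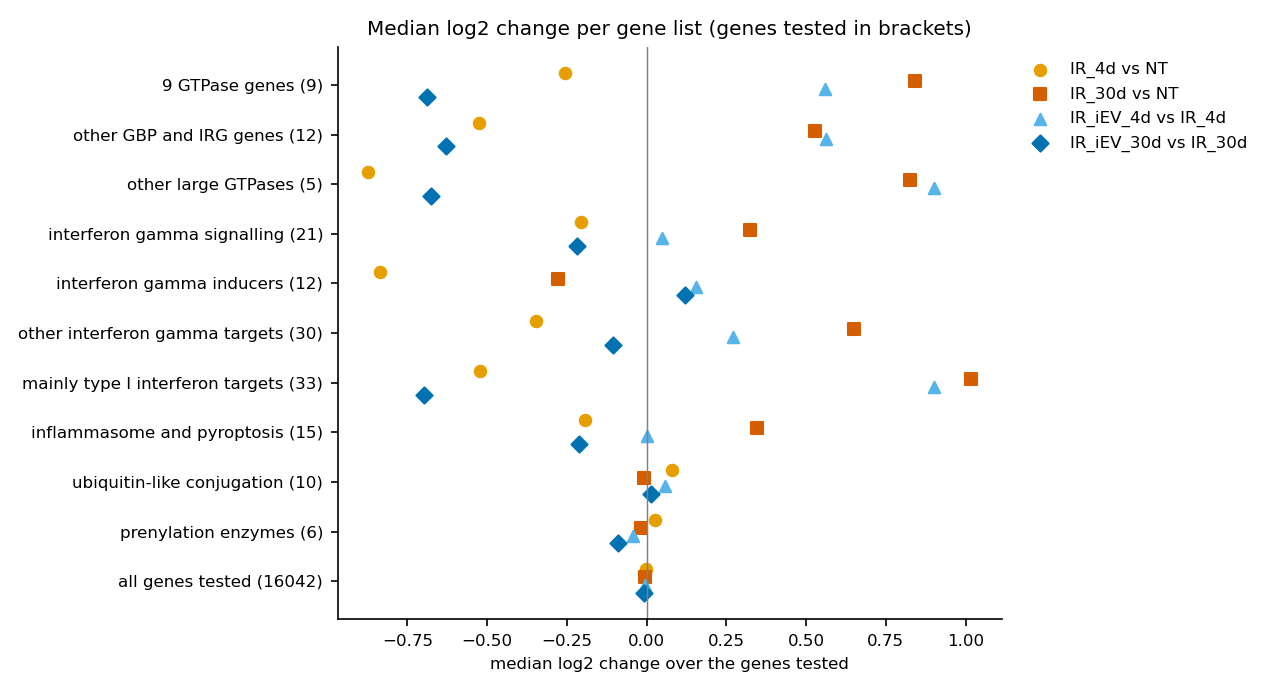
Median log2 change of each gene list (number of genes tested in brackets) in 4 comparisons, marked by shape and colour. The 9 GTPase genes and their 12 relatives lie below 0 in IR_4d against NT and in IR_iEV_30d against IR_30d and above 0 in the other 2 comparisons, while conjugation, prenylation and all genes tested lie near 0.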

How the data were processed

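RNA was measured by bulk sequencing of 15 libraries, 3 in each of 5 groups. The deposited file holds the authors' raw read counts, as whole numbers for each gene symbol and library. The submitters' processing notes name TopHat, HTSeq, DESeq2 and the build GRCm39, without versions. Per the labels, RNA was extracted with TRIzol and libraries were made with a stranded kit. The strand setting of the counting is not given in the sources used here. Genes were filtered with filterByExpr (minimum count 10, minimum total 15) and tested in R 4.3.3 with edgeR 4.0.16: TMM scaling and robust quasi-likelihood F tests in 1 model that holds every library (10 residual degrees of freedom). P-values were adjusted by Benjamini-Hochberg over 16042 genes separately for the 8 comparisons, and 0.05 was the threshold. At an unadjusted p under 0.05 by edgeR there were 1854 genes in IR_4d and 2618 in IR_30d against NT. There were 1093 in IR_iEV_4d against IR_4d and 2066 in IR_iEV_30d against IR_30d. SEs were obtained by dividing the size of a log2 ratio by the root of its F statistic. Library totals ran from 29082798 to 52201098 reads, and 3 libraries in a group limit the precision. Same-numbered libraries correlated above 0.1 in 5 of 30 pairs (-0.292 to 0.188), which showed no pairing by replicate number. This check cannot exclude pairing, since single libraries also differed in sublingual, adipose and muscle markers.

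By rule the text may name all 9 members in every comparison (those not named are given by counts and ranges), up to 4 genes of each list with the lowest p among those called, the other family members, a few fixed pathway genes and the 10 genes most alike (mean of at least 2 CPM, prior count 2). Some genes the rule names are not reported here. The members, lists and rules were chosen with earlier results of these data known. Alternatives were DESeq2 1.42.0, limma-voom (limma 3.58.1), other scalings and filters, a fit of the compared groups only, a replicate block and leaving out each library. Added after seeing the data were marker covariates and a fit without the libraries high in sublingual markers. Exonic lengths and shared 50-base windows come from GRCm38 gene models, promoters from RefSeq.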

Additional observations from a re-analysis of the deposited data

Results flagged for a closer look

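The iEV change of Gbp3 differed between the days: its difference, day 30 minus day 4, was -1.82 ± 0.291 (edgeR adjusted p = 0.0113). The change was 0.85 at day 4, with every IR_iEV_4d library above IR_4d, and -0.97 at day 30, with every IR_iEV_30d library below IR_30d. Irradiated glands without iEVs differed between day 30 and day 4 for 7 members by the same test. The differences were 1.45 ± 0.202 for Gbp2 and 1.55 ± 0.209 for Gbp3, 1.21 ± 0.288 for Gbp5 and 1.83 ± 0.245 for Gbp6. They were 0.66 ± 0.143 for Irgm1, 1.15 ± 0.244 for Igtp and 1.4 ± 0.276 for Iigp1. In all 7 every IR_30d library lay above every IR_4d library. No cause was tested for these differences.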

How the results depend on the processing

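Counts of members called that moved by more than 1.5 times are given first; where no construction is given the cause was not tested. In IR_4d against NT the count of 0 became 1 with DESeq2 and 1 with the compared groups only. In IR_30d against NT 5 became 3 at a mean of at least 5 CPM, where only 6 members were tested, 3 with sublingual and adipose covariates, 2 without the 6 sublingual-high libraries, 0 with the macrophage covariate and 2 to 4 when each library was left out. In IR_iEV_30d against IR_30d 1 became 4 with DESeq2, and 0 at a mean of at least 5 CPM, which leaves out Gbp3, with the compared groups only, with either covariate set, without the sublingual-high libraries, and 0 to 1 when each library was left out. In IR_30d against IR_4d 7 became 4 at a mean of at least 5 CPM, 3 without the sublingual-high libraries, 0 with the macrophage covariate and 5 to 7 when each library was left out. In IR_iEV_4d against NT 0 became 1 with the macrophage covariate. With it calls over all genes fell from 1092 to 2 in IR_30d against IR_4d and from 128 to 2 in IR_iEV_30d against IR_30d. They fell from 718 to 29 in IR_30d against NT and from 224 to 136 in IR_4d against NT. For iEVs at day 4 they fell from 5 to 0, and for the difference between days from 20 to 0. They rose from 371 to 426 in IR_iEV_4d against NT and from 177 to 270 in IR_iEV_30d against NT. For the difference between days 1 became 3 with DESeq2, 0 at a mean of at least 5 CPM, 0 with either covariate set or without the sublingual-high libraries, and 0 to 2 when each library was left out. Smaller moves were those of IR_30d against NT to 6 with DESeq2, limma-voom or no low-count filter, and of IR_30d against IR_4d to 9 with DESeq2 or the compared groups only, 8 with DESeq2 size factors or upper quartile scaling and 5 with sublingual and adipose covariates. The labels do not say whether replicate numbers pair the libraries. With the replicate block 4 members were called in IR_30d against NT (Gbp6 lost, edgeR adjusted p = 0.0562) and 0 in IR_iEV_30d against IR_30d. The other counts did not change with it. Over 954 alternative values of single members, 848 kept direction and side of the threshold, 57 lost it, 21 gained it and 28 changed sign. For the 14 results called in the main fit there were 237 such values. Of these 178 stayed the same, 57 lost the call and 2 changed sign.

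Of the changes of sign, 20 came with the macrophage covariate. Against NT in IR_4d they gave Gbp2 0.13, Gbp3 0.29, Gbp5 0.14, Gbp7 0.25, Gbp9 0.0828, Irgm1 0.15 and Igtp 0.0316. Against NT in IR_30d they gave Gbp6 -0.29, Gbp7 -0.36, Gbp9 -0.22 and Iigp1 -0.1997. For iEVs at day 4 they gave Gbp2 -0.0162, Gbp7 -0.36 and Gbp9 -0.16, and at day 30 Gbp5 0.0488. Between IR_30d and IR_4d they gave Gbp7 -0.61, Gbp9 -0.2996 and Iigp1 -0.0502, and for the difference between days Gbp7 0.00994 and Gbp9 0.0906. Irgm1 in IR_4d against NT became 0.15 with sublingual and adipose covariates, and ran from -0.13 to 0.18 when each library was left out, with positive values without NT replicate 3 and without IR_4d replicates 1 and 3. Without the sublingual-high libraries Gbp9 became 0.0185 in IR_4d against NT and -0.14 for iEVs at day 4. Without IR_iEV_4d replicate 3 the iEV changes at day 4 became -0.0472 for Gbp7 and -0.0688 for Gbp9, the lowest of ranges that reached 0.304 and 0.476 as each library was left out. Gbp5 had 30 to 119 reads in a library, the fewest of the 9 genes.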
